A study of Arabidopsis thaliana with 4 samples.

Results

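The nuclear genes that build the photosynthetic apparatus were examined in callus of Arabidopsis thaliana by RNA-seq, together with the genes that drive greening. The set was chosen from a list of 40 locus codes: 13 LHCB and 4 LHCA light-harvesting genes, 4 RBCS genes, RCA, 6 photosystem I genes, 4 genes of the oxygen-evolving complex, GLK1, GLK2 and 6 chlorophyll synthesis genes. Of these, 34 had a row among the 23922 loci of the count table and 29 passed the filter on low counts, which left 19325 tested genes. LHCB1.5, LHCB2.2, LHCB2.3, RBCS1B, RBCS2B and RBCS3B lacked a row, so their expression is not analysed here. Seedlings were raised in darkness for 9 days, and hypocotyl pieces were then kept in continuous light (24 h per day) for 5 to 6 days on callus induction medium with 2% sucrose, 11 µM of the synthetic auxin 2,4-D and 0.2 µM kinetin, a cytokinin. The 2 groups, with 2 libraries each, were wild type of the accession Col-0 and a double mutant, plt1 plt2. About 100 calli were pooled for each RNA sample. The mutant is named for a pair of PLETHORA genes, AP2-type transcription factors of the root stem cell niche, and its alleles are not given in the sources used here. Whether the libraries of a group were separate cultures is not labelled, and p-values therefore reflect a spread that may be technical.

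Total counts were 53907649 to 63209401 reads per library. PLT1 had 171 and 166 CPM (counts scaled to library size, with TMM factors) in wild type and 122 and 128 CPM in plt1 plt2. PLT2 had 63 and 62.1 CPM in wild type and 182 and 179 CPM in plt1 plt2, which is higher under the mutant label. Read counts do not tell whether a transcript is functional, every direction rests on the labels, and plt1 plt2 stands throughout for the libraries labelled plt1 plt2. All 8 callus and root-primordium markers had reads in every library, with PLT3 at 757 CPM or more and LBD16 at 122 CPM or more. In that list 5 were called higher and 1 lower, where 4.63% of all tested genes were called higher and 5.86% lower. Among the 4 largest changes called in that list, LBD17 (log2 fold change 0.49), PLT3 (0.28) and LBD16 (0.28) rose and SCR (-0.37) fell. No call of a callus, root cap or phloem marker was followed over the alternatives.

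Light-harvesting proteins bind chlorophyll and pass absorbed energy to the photosystems, LHCB proteins mainly to photosystem II and LHCA proteins to photosystem I. Their genes, like those of the Rubisco small subunit, are encoded in the nucleus and are strongly light-induced in seedlings. Many light-harvesting genes also depend on the GARP-type transcription factors GLK1 and GLK2. In Arabidopsis roots, auxin is known to hold back greening, and GLK2 and the light-signalling factor HY5 are known to promote it.

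Reads of these genes were few in every library. The 34 genes together took 0.0209% and 0.0214% of the reads of the wild-type libraries, and 0.0198% and 0.0204% of those of the plt1 plt2 libraries. Their summed level was 211 and 216 CPM in wild type against 197 and 201 CPM in plt1 plt2, so the groups did not overlap but lay close together. Compared per length, as TPM (a level scaled by transcript length and library), the 29 tested members had a median level of 3.49 TPM, and all tested genes had one of 19.0 TPM. PSAF stood highest among the members, with a TPM level of 36.8 and 39.9 in wild type and 45.4 and 43.1 in plt1 plt2. LHCB4.1 followed with a mean level of 21.5 TPM over the 4 libraries. HEMA1 (16.6 TPM), CHLI1 (15.6), CHLH (15.3), PSBP1 (15.3), PSBO1 (15.2), LHCA4 (11.7) and RCA (11.3) came next as mean levels, and neighbours in this order overlapped in range over the libraries except PSBO1 and LHCA4. PSAF lay above LHCB4.1, and LHCB4.1 above HEMA1, in every library. At the low end, LHCB1.1, LHCB1.4, LHCB2.1, PSAE1 and PSAG (AT1G55670) had at most 4 reads in any library and were not tested.

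**Figure D1:**
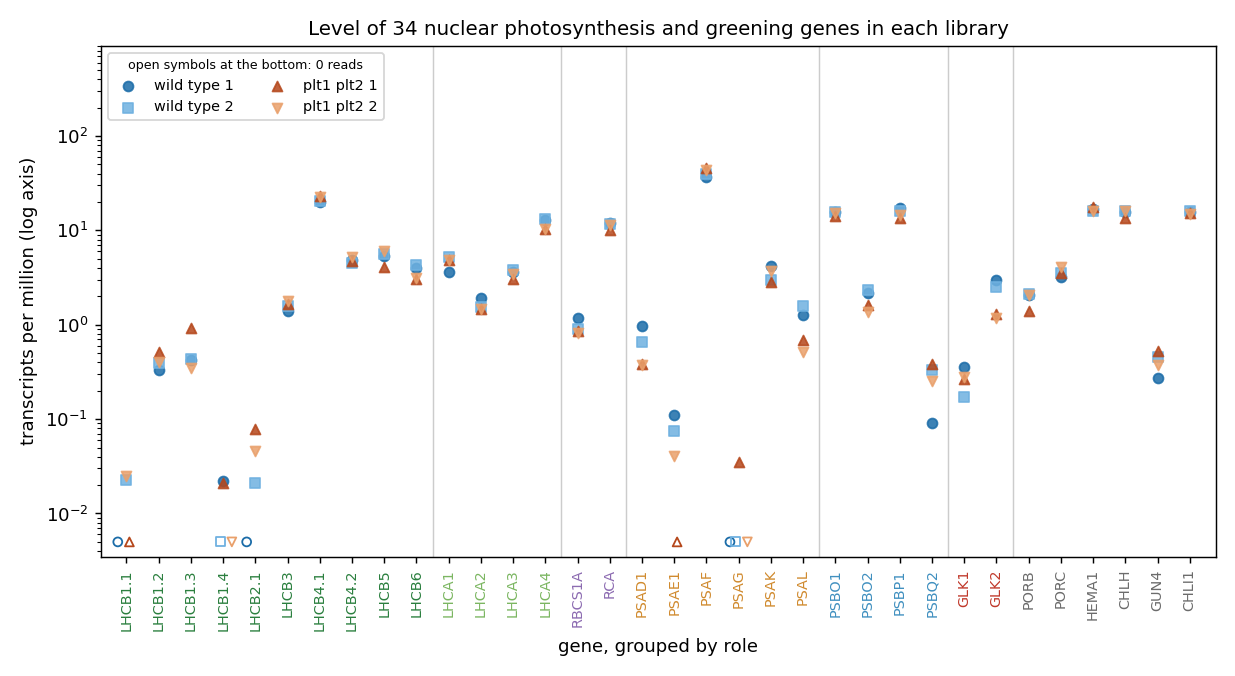
Level of each of the 34 members with a row, in TPM on a log axis, with 1 symbol per library and genes grouped by role. PSAF and LHCB4.1 lie highest, and open symbols at the bottom mark libraries with 0 reads, seen for LHCB1.1, LHCB1.4, LHCB2.1, PSAE1 and PSAG.

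Between the genotypes, 4 of the 29 tested members fell in plt1 plt2 and 0 rose (quasi-likelihood test of edgeR, adjusted p below 0.05 by Benjamini-Hochberg over all genes tested). The members that fell were GLK2, PSAL, LHCA4 and PSBP1. In all, 10.5% of tested genes were called, 5.86% lower and 4.63% higher, beside 13.8% of the tested members called lower. The median log2 fold change of the tested members was -0.15, with a range from -1.28 to 0.59, and that of all tested genes was -0.00053. Both wild-type libraries lay above both plt1 plt2 libraries for 14 tested members, where the share over all tested genes was 27.7%. The reverse held for 3 members, against 27% of all tested genes, and the groups overlapped for the other 12. At an unadjusted p below 0.05, 8 members were lower and 1 was higher, and the shares over all tested genes were 13.2% lower and 11.4% higher. The count of 4 rests on both wild-type libraries: 1 member, GLK2, was called without wild type 1 and 1, again GLK2, without wild type 2, and DESeq2 also called GLK2 alone among the members.

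**Figure D2:**
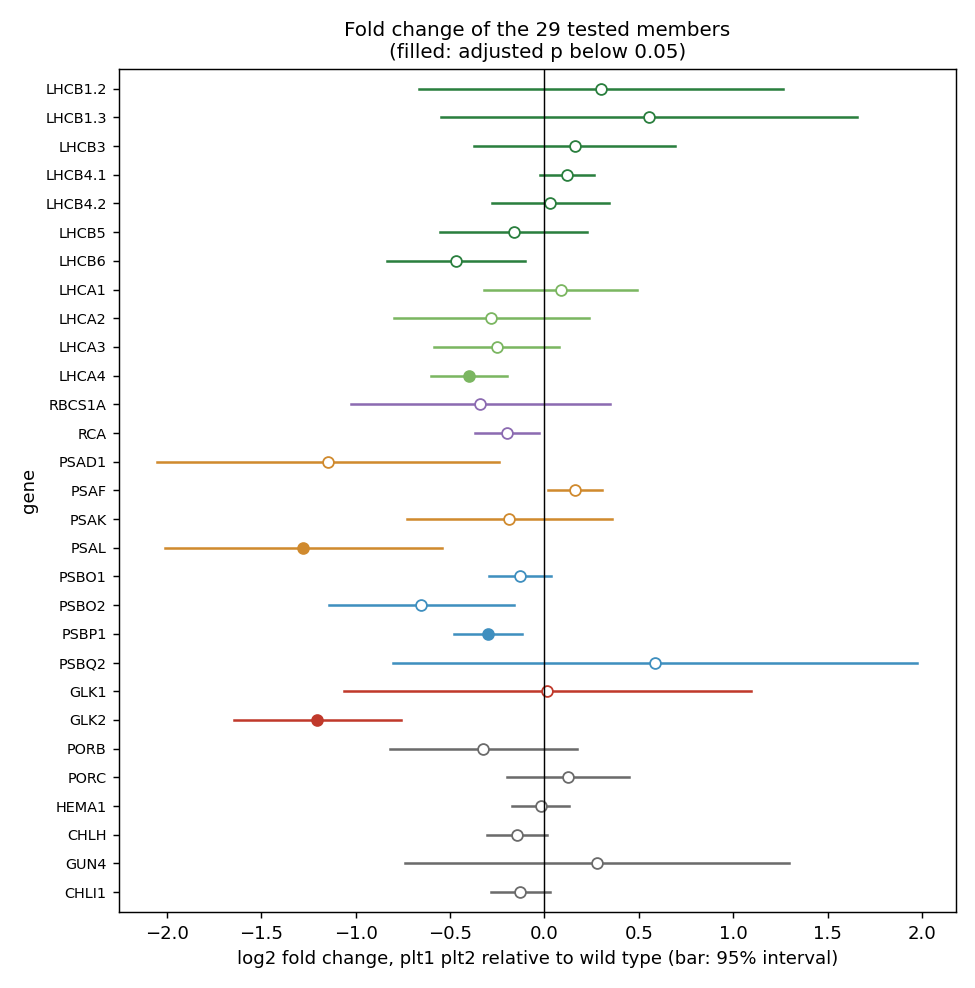
Log2 fold change (plt1 plt2 relative to wild type) of the 29 tested members with its 95% interval, coloured by role (dark green LHCB, light green LHCA, purple Rubisco, orange photosystem I, blue oxygen-evolving complex, red GLK, grey chlorophyll synthesis). Filled points mark GLK2, PSAL, LHCA4 and PSBP1, whose adjusted p was below 0.05, and the widest intervals belong to genes with few reads such as PSBQ2 and LHCB1.3.

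GLK2 (AT5G44190), a transcription factor that activates nuclear photosynthesis genes, had the smallest adjusted p of the members. It had 179 and 147 reads in wild type and 82 and 63 in plt1 plt2, or 3.06 and 2.59 CPM against 1.29 and 1.15 CPM. Both plt1 plt2 libraries were below both wild-type libraries. The log2 fold change was -1.2 ± 0.20 (SE; 95% interval -1.64 to -0.76; edgeR adjusted p = 0.00326), so that its level in wild type was 2.3-fold that in plt1 plt2. In bulk callus, fewer cells that express a gene and less RNA per cell cannot be told apart. GLK2 was called in each of the 10 alternatives, with adjusted p between 1.28e-05 and 0.0439, the highest of these without wild type 1. Its relative GLK1 (AT2G20570), which acts redundantly with it in leaves, had 21 and 10 reads in wild type and 17 and 15 in plt1 plt2, so the groups overlapped. The log2 fold change of GLK1 was 0.01 ± 0.49, with a 95% interval of -1.06 to 1.09. The difference between the responses of the 2 genes was not tested. Per length, GLK2 made up 89.5% and 93.6% of the summed GLK1 and GLK2 level in wild type and 82.8% and 80.8% in plt1 plt2.

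GLK2 lies on TAIR10.1 chromosome 5, 17798262 to 17800926, plus strand, and overlaps no other annotated gene. The 250 bases before its annotated start are printed here because it is the member that was called under every alternative run. They are chr5:17798012-17798261 on the plus strand, 5′ to 3′, and they hold none of the 3 motifs searched, so no letter is in capitals.
GLK2: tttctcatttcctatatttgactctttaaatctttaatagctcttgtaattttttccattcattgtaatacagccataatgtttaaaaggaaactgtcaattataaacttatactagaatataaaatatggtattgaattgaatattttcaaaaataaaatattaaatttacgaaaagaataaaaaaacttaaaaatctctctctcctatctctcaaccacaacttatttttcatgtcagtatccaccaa

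The LHCB genes, which encode the antenna of photosystem II, did not pass the test. Of 13 genes 10 had a row, 7 were tested and 0 were called in either direction, with 1 lower and 0 higher at an unadjusted p below 0.05. Their median log2 fold change was 0.12. LHCB4.1 (AT5G01530), an inner antenna protein and the most abundant of them, had 16.5 and 16.8 CPM in wild type and 18.5 and 17.6 CPM in plt1 plt2. Its plt1 plt2 values lay above the wild-type ones, with a log2 fold change of 0.12 ± 0.07 (95% interval -0.03 to 0.26; edgeR adjusted p = 0.296). LHCB4.2 (AT3G08940), the second copy, had 3.92 and 3.62 CPM against 3.72 and 3.99 CPM. LHCB5 (AT4G10340), another inner antenna protein, had 4.33 and 4.59 CPM against 3.26 and 4.74 CPM. For these last 2 genes the groups overlapped, with 95% intervals of the log2 fold change from -0.28 to 0.34 and from -0.55 to 0.23.

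LHCB6 (AT1G15820), the inner antenna protein that links the trimeric antenna to photosystem II, had 2.84 and 3.06 CPM in wild type and 2.14 and 2.12 CPM in plt1 plt2. The groups did not overlap, but the difference missed the threshold (log2 fold change -0.47 ± 0.16, edgeR adjusted p = 0.109). LHCB3 (AT5G54270), a subunit of the trimeric antenna, had 1.03 and 1.16 CPM in wild type and 1.2 and 1.25 CPM in plt1 plt2 (log2 fold change 0.16, adjusted p = 0.740). The genes of the major trimeric antenna were close to the limit of detection. LHCB1.2 (AT1G29910) had 14 and 16 reads in wild type and 23 and 15 in plt1 plt2, and LHCB1.3 (AT1G29930) had 18 and 18 reads against 42 and 13. In LHCB1.3 the library plt1 plt2 1 was the highest and plt1 plt2 2 the lowest of the 4. LHCB1.1 (AT1G29920) had 1 read in wild type 2 and 1 in plt1 plt2 2, LHCB1.4 (AT2G34430) had 1 in each library numbered 1, and LHCB2.1 (AT2G05100) had 0 and 1 reads in wild type against 4 and 2 in plt1 plt2.

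LHCB1.1, LHCB1.2 and LHCB1.3 lie close together on chromosome 1, and 62.6% to 68.4% of their exon bases match another of the 3 at 95% identity or more over at least 75 bases. Reads of these copies may thus have been split or left out, and their single counts are uncertain. Summed, the 3 genes had 32 and 35 reads in wild type and 65 and 29 in plt1 plt2, and their log2 fold change was 0.44 ± 0.37, which was not called (edgeR adjusted p = 0.514). LHCB2.1 shares 53.3% of its exon bases with LHCB2.2 in the same way, and LHCA2 shares 20.5% with AT5G28450. LHCB1.3, LHCB3, LHCB4.2 and LHCB6 also overlap genes on the other strand, and strand use in counting is not given in the sources used here. The same holds for RCA, PSAE1, PSAG, PORB, PORC, GUN4 and CHLI1, and for LHCA4 and PSBP1 as given below.

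Of the LHCA genes, which encode the antenna of photosystem I, LHCA4 fell and the other 3 were not called. LHCA4 (AT3G47470), known for the long-wavelength chlorophylls of that antenna, had 9.85 and 10.2 CPM in wild type and 7.73 and 7.45 CPM in plt1 plt2. Every plt1 plt2 value was below every wild-type one, and the wild-type level was 1.32-fold the plt1 plt2 level (log2 fold change -0.40 ± 0.09, edgeR adjusted p = 0.0188). Leaving out wild type 1 (adjusted p = 0.0819) or wild type 2 (0.132) ended the call, as did DESeq2 (0.0588). LHCA4 lies on chromosome 3, 17493343 to 17495033, minus strand, and overlaps AT3G47460 on the other strand. LHCA3 (AT1G61520) had 3.47 and 3.68 CPM in wild type and 2.85 and 3.15 CPM in plt1 plt2, and LHCA2 (AT3G61470) had 1.57 and 1.28 against 1.2 and 1.15 CPM. Neither pair of groups overlapped, and neither gene was called (adjusted p = 0.333 and 0.508). LHCA1 (AT3G54890) had 2.72 and 3.92 CPM in wild type and 3.59 and 3.44 CPM in plt1 plt2, so its wild-type libraries stood on either side of the others.

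Among the photosystem I subunits tested, PSAL fell and the others were not called, and differences between subunits were not tested. PSAL (AT4G12800), which forms the docking side for mobile antenna, had 50 and 61 reads in wild type and 29 and 18 in plt1 plt2. In CPM these were 0.855 and 1.07 against 0.457 and 0.330, with no overlap and a 2.42-fold higher level in wild type (log2 fold change -1.28 ± 0.33, edgeR adjusted p = 0.0344). Leaving out wild type 1 (adjusted p = 0.0915), wild type 2 (0.245) or plt1 plt2 2 (0.104) ended the call, as did DESeq2 (0.110), while the log2 fold change stayed between -1.43 and -1.07 without any 1 of these 3 libraries. PSAL lies on chromosome 4, 7521257 to 7522761, plus strand, and overlaps no annotated gene.

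PSAF (AT1G31330), a subunit at the plastocyanin side, had 26.0 and 28.3 CPM in wild type and 31.5 and 29.1 CPM in plt1 plt2. It was the only member with an unadjusted p below 0.05 and a higher level in plt1 plt2. Its log2 fold change of 0.16 ± 0.06 missed the threshold (edgeR adjusted p = 0.149), and it was called higher without plt1 plt2 2 (0.0412). PSAD1 (AT4G02770), a stromal subunit that binds ferredoxin, had 38 and 25 reads in wild type and 16 and 13 in plt1 plt2. These groups did not overlap, and the log2 fold change of -1.14 ± 0.41 missed the threshold (adjusted p = 0.111). PSAK (AT1G30380), at the antenna side, had 1.90 and 1.35 CPM against 1.26 and 1.61 CPM, which overlapped (adjusted p = 0.699). PSAE1 (AT4G28750) had 3 and 2 reads in wild type and 0 and 1 in plt1 plt2, and PSAG (AT1G55670) had a single read, in plt1 plt2 1.

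In the oxygen-evolving complex of photosystem II, PSBP1 fell and the other 3 genes were not called. PSBP1 (AT1G06680), an extrinsic protein that stabilises the complex, had 13.9 and 12.7 CPM in wild type and 10.6 and 11.0 CPM in plt1 plt2. The groups did not overlap (log2 fold change -0.30 ± 0.08, edgeR adjusted p = 0.0426), and the wild-type level was 1.23-fold the plt1 plt2 level. Leaving out wild type 1 (adjusted p = 0.248), wild type 2 (0.0771) or plt1 plt2 1 (0.0512) ended the call, as did DESeq2 (0.148), and the gene (chromosome 1, 2047634 to 2049439, plus strand) overlaps AT1G06670 on its own strand and AT1G06690 on the other. PSBO2 (AT3G50820), a copy of the manganese-stabilising protein, had 1.71 and 1.85 CPM in wild type and 1.23 and 1.03 CPM in plt1 plt2. It missed the threshold without overlap between groups (log2 fold change -0.65 ± 0.22, adjusted p = 0.0950). PSBO1 (AT5G66570), the major copy, had 13.9 and 13.8 CPM against 12.3 and 13.0 CPM (log2 fold change -0.13, adjusted p = 0.326). PSBQ2 (AT4G05180) had 4 and 14 reads in wild type and 18 and 10 in plt1 plt2, and its groups overlapped.

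Of the genes for carbon fixation, RBCS1A and RCA were measured. RBCS1A (AT1G67090), a Rubisco small subunit gene that is abundant in leaves, had 51 and 38 reads in wild type and 40 and 32 in plt1 plt2, or 0.872 and 0.668 against 0.631 and 0.586 CPM. The groups lay just apart, and the gene was not called (log2 fold change -0.34, 95% interval -1.02 to 0.35; edgeR adjusted p = 0.554). RCA (AT2G39730), the activase that frees Rubisco of inhibitory sugar phosphates, had 14.8 and 14.5 CPM in wild type and 12.2 and 13.3 CPM in plt1 plt2. Its log2 fold change of -0.20 ± 0.08 missed the threshold as well (adjusted p = 0.140). Per length, RCA had a mean level of 11.3 TPM and RBCS1A one of 0.937 TPM.

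None of the 6 chlorophyll synthesis members was called at adjusted p below 0.05 by edgeR, none had an unadjusted p below 0.05, and DESeq2 called none. HEMA1 (AT1G58290), whose glutamyl-tRNA reductase opens the pathway, had 22.7 and 22.1 CPM in wild type and 23.3 and 20.9 CPM in plt1 plt2, a log2 fold change of -0.02 with a 95% interval of -0.17 to 0.13. CHLH (GUN5, AT5G13630), the large subunit of magnesium chelatase, had 43.3 and 45.4 CPM against 36.9 and 43.3 CPM (-0.15, -0.30 to 0.01). It was called lower without plt1 plt2 2 (adjusted p = 0.00299), the library in which it was closest to wild type. CHLI1 (AT4G18480), another chelatase subunit, had 14.9 and 15.3 CPM against 14.1 and 13.6 CPM (-0.13, -0.28 to 0.03). GUN4 (AT3G59400), which stimulates the chelatase, had only 12 and 20 reads in wild type and 25 and 15 in plt1 plt2. PORC (AT1G03630), a light-dependent protochlorophyllide reductase, had 3.37 and 3.73 CPM against 3.64 and 4.1 CPM, and PORB (AT4G27440), of the same function, had 1.98 and 2.06 against 1.32 and 1.92 CPM. The groups of PORC overlapped, those of PORB did not, and neither was called (adjusted p = 0.658 and 0.415).

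In each pair of copies compared here, the copies were used unequally, and the dominant copy was the same in every library. Per length, LHCB4.1 made up 80.5% to 82.9% of the summed LHCB4.1 and LHCB4.2 level, and PSBO1 made up 86.8% to 91.8% of that of PSBO1 and PSBO2. PSAE1 and PSBQ2, members with few reads, stood beside better expressed copies outside the set. PSAE2 held 99.0% to 100.0% of the PSAE level and PSBQ1 held 93.2% to 98.6% of the PSBQ level. PSAD2 held 61.9% and 69.5% of the PSAD level in wild type and 83.2% and 82.3% in plt1 plt2. The copies PSAE2, PSBQ1 and PSAD2 were not called (edgeR adjusted p = 0.420, 0.218 and 0.699), and PSAD2 overlaps another gene on its own strand. These shares are a description with no test.

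Genes of the same pathways outside the 40 were counted in 7 lists of 102 genes, of which 85 were tested. In these, 4 fell (4.71%) and 0 rose, and the median log2 fold change was -0.02. That share lay near and below the 5.86% of all tested genes called lower. Of 17 further light-harvesting and photosystem genes tested none was called by edgeR, with 2 higher and 1 lower at an unadjusted p below 0.05. The most abundant of them, LHCA5 (log2 fold change 0.22, edgeR adjusted p = 0.0663) and PSBR (-0.11, 0.446), lay on either side of 0. PSBTN, named after its values were seen, had the highest log2 fold change of that list (0.67 ± 0.21, edgeR adjusted p = 0.0687). It had 75 and 71 reads in wild type and 119 and 118 in plt1 plt2, without overlap, and it was called higher with no filter and without plt1 plt2 1. Of 10 electron transport and ATP synthase genes 1 fell, PETE2, a plastocyanin, which had 4.31 and 4.36 CPM in wild type and 2.98 and 3.00 CPM in plt1 plt2. Its groups did not overlap (log2 fold change -0.54 ± 0.14, adjusted p = 0.0334), and leaving out wild type 1 (0.137) or wild type 2 (0.167), or using DESeq2 (0.116), ended the call. Of 12 Calvin cycle genes none was called, with 2 lower and 0 higher at an unadjusted p below 0.05. TKL1, a plastid transketolase, had 366 and 351 CPM against 338 and 330 CPM (adjusted p = 0.188), and the triose phosphate isomerase gene PDTPI had 189 and 192 against 179 and 172 CPM (adjusted p = 0.119). DESeq2 called CHLP and PHYA alone in the 7 lists.

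Among 25 other tetrapyrrole genes 1 fell and 0 rose. This was CHLP, the geranylgeranyl reductase that makes the phytyl side chain of chlorophyll and of tocopherols. It had 85.2 and 85.1 CPM in wild type and 53.3 and 52.4 CPM in plt1 plt2. The 2 libraries of each group were nearly equal, and the log2 fold change was -0.69 ± 0.04 (edgeR adjusted p = 6.08e-06), a level 1.61-fold higher in wild type. CHLP was called in each of the 10 alternatives. It overlaps AT1G74480 on the other strand and no gene on its own. Its log2 fold change lay below the 95% intervals of HEMA1, CHLH, CHLI1 and PORC. It lay within those of PORB (-0.82 to 0.17) and GUN4 (-0.74 to 1.29), and the differences between genes were not tested.

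Of 13 light and greening regulators 2 fell and 0 rose. PHYA, the far-red light receptor, had 318 and 314 CPM in wild type and 270 and 270 CPM in plt1 plt2. Its log2 fold change was -0.23 ± 0.04 (edgeR adjusted p = 0.00596). It was not called when wild type 1 was left out (0.0631). PIF5, a bHLH factor that is degraded in light, had 24 and 25 reads in wild type and 6 and 3 in plt1 plt2 (-2.45 ± 0.53, adjusted p = 0.0143). Leaving out wild type 1 (0.0786), wild type 2 (0.109) or plt1 plt2 2 (0.0530) ended the PIF5 call, as did DESeq2 (0.0589). HY5, named here for its role in root greening, had 44.5 and 50.4 CPM in wild type and 47.1 and 48.0 CPM in plt1 plt2, which overlapped (log2 fold change 0.00, 95% interval -0.13 to 0.14). Of 6 plastid sigma factor and polymerase genes none was called and none had an unadjusted p below 0.05. RPOTP had 53.7 and 52.5 CPM against 51.8 and 54 CPM, and SIG6 had 19.4 and 17.2 against 18.9 and 18.8 CPM. The 10 plastid-encoded photosynthesis genes had 69 and 44 reads in all in wild type and 49 and 45 in plt1 plt2. Only ATPB and RBCL could be tested (edgeR adjusted p = 0.706 and 0.980). Counts this low were not taken as a measure of plastid transcript levels. How RNA was selected for the libraries was not examined.

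**Figure D3:**
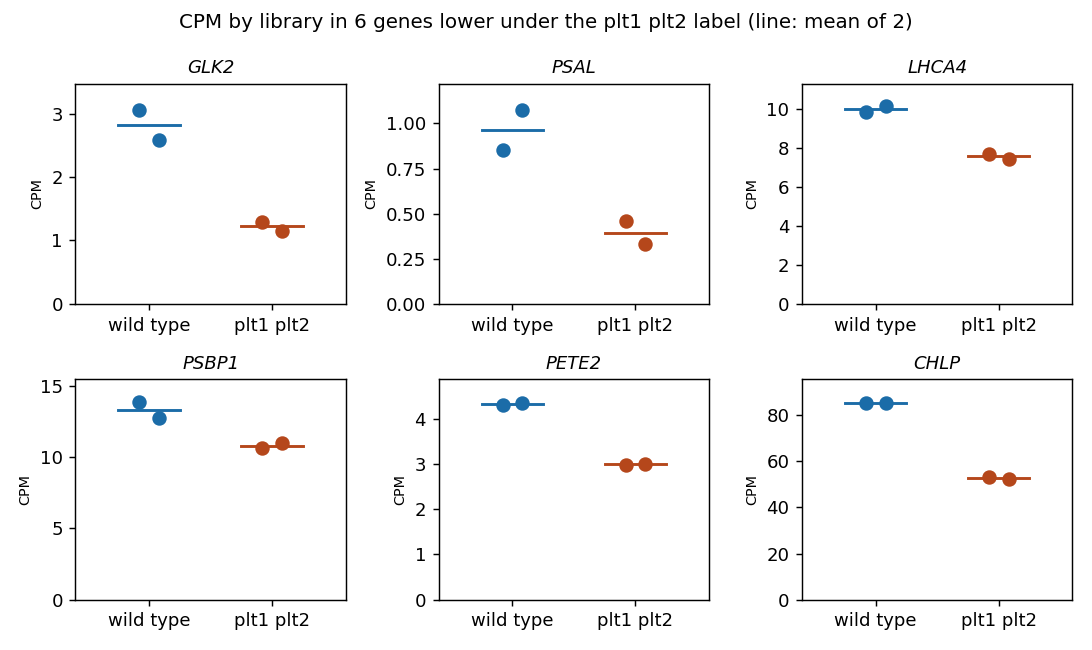
CPM in each library for 6 genes that were lower in plt1 plt2, with the mean of the 2 libraries as a line and axes starting at 0. The wild-type points lie above the plt1 plt2 points in every panel, from 0.330 to 1.07 CPM in PSAL up to 52.4 to 85.2 CPM in CHLP.

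**Figure D4:**
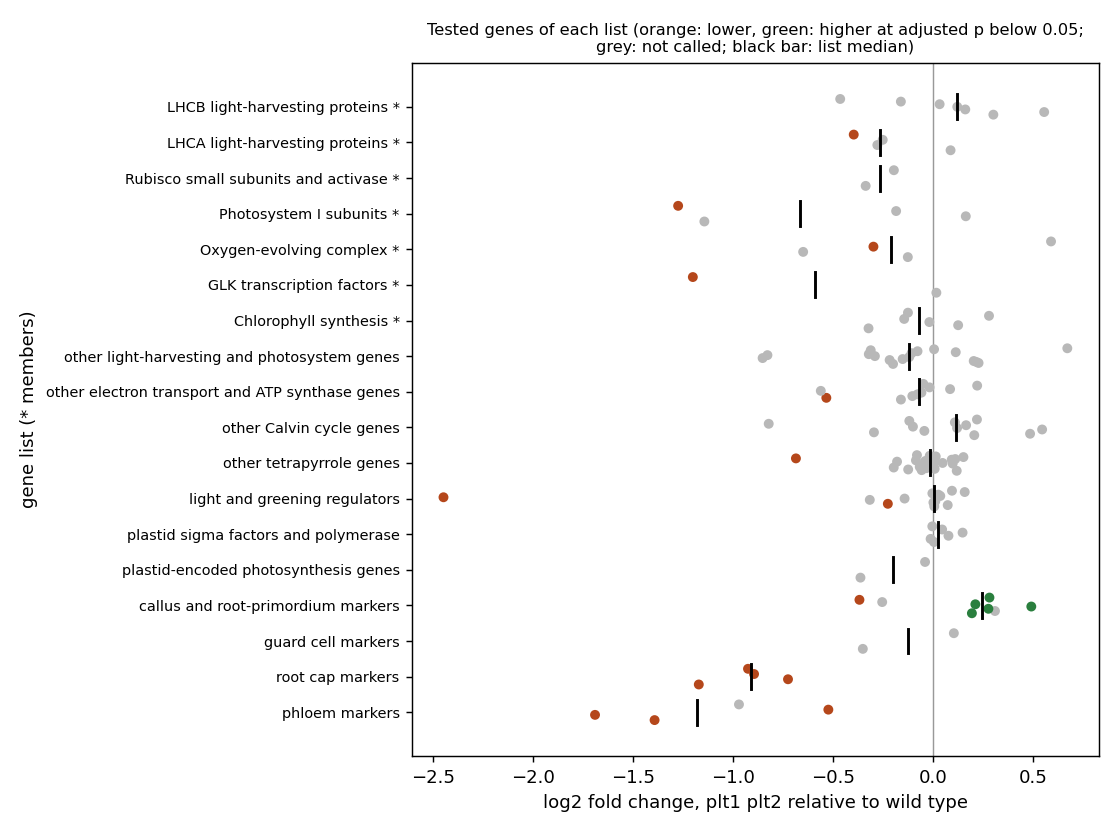
Log2 fold change (plt1 plt2 relative to wild type) of each tested gene by list, with called genes in orange (lower) or green (higher) and the list median as a black bar. No photosynthesis or greening list holds a called increase, and all 4 root cap markers were called lower.

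Markers of other cell types were read in the same libraries. All 4 root cap markers fell, and their summed level was 62.4 and 57.6 CPM in wild type and 26.5 and 37.5 CPM in plt1 plt2, with log2 fold changes of -1.17 for FEZ, -0.93 for BRN2, -0.90 for BRN1 and -0.73 for SMB. Of 4 phloem markers SEOR2 (-1.69), SEOR1 (-1.39) and SUC2 (-0.52) fell, APL was not called, and the summed level was 9.34 and 8.11 CPM against 4.73 and 4.61 CPM. Over all tested genes 5.86% were called lower, and these marker calls were not followed over the alternatives. The root cap and phloem decreases stand beside those of GLK2, PSAL, LHCA4, PSBP1, PETE2, CHLP, PHYA and PIF5, and their part in them was not tested. Of 7 guard cell markers, whose chloroplasts could bring photosynthesis transcripts into callus, MUTE and EPF1 had no row. The other 5 summed to 0.718 and 0.457 CPM in wild type and 0.505 and 0.604 CPM in plt1 plt2, with STOMAGEN at 1 read in the 4 libraries together. TMM and KAT1, the only ones of these genes that were tested, were not called (edgeR adjusted p = 0.701 and 0.945).

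The 250 bases before each annotated start were searched on both strands for 3 motifs linked to light- or GLK-dependent expression. The G-box (CACGTG) was present in 6 of 40 members (15.0%) and in 6.81% of 23754 genes with a window. The I-box core (GATAAG, or CTTATC) was present in 11 (27.5%) against 12.2% of all, and CCAATC (or GATTGG) in 14 (35%) against 10.4%. The 40 include the members that lacked a row, whereas the 23754 genes all had one, so the shares are not of like sets. Among members without a row, LHCB2.3 and RBCS2B held a G-box and RBCS2B an I-box. LHCB1.5, LHCB2.2 and LHCB2.3 held CCAATC. No site of one motif overlapped another in the members. Matches are a description of the letters, not of binding sites, and the sequence is from the RefSeq TAIR10.1 genome.

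Of the members that fell, GLK2, PSAL and PSBP1 held none of the 3 motifs, and LHCA4 held a G-box and CCAATC on either strand. LHCB4.1, which was not called, held the same combination. The LHCA4 and LHCB4.1 windows are printed as a called and an uncalled gene with these letters, and PSAL as a called gene without them. A link between motifs and calls was not tested. LHCA4 is chr3:17495034-17495283 on the minus strand, with the G-box starting at base -88 and the others at -144 and -48, counted back from the start. LHCB4.1 is chr5:208616-208865 on the plus strand, with the G-box at -74 and the others at -194 and -35. PSAL is chr4:7521007-7521256 on the plus strand. Each reads 5′ to 3′ with motif matches in capitals.
LHCA4: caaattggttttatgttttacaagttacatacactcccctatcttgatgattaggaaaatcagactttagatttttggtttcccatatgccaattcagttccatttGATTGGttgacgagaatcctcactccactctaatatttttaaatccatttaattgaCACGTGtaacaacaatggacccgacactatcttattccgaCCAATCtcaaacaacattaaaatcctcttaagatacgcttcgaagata
LHCB4.1: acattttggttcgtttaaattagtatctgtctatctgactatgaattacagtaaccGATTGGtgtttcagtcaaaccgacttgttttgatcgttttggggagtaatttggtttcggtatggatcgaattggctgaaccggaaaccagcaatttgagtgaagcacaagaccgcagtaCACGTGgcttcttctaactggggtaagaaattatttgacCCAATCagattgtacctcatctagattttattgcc
PSAL: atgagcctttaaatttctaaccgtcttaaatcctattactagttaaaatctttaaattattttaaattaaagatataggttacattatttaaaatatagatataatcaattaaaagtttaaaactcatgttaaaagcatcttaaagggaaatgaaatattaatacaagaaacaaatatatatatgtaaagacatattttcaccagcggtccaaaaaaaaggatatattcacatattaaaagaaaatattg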

How the data were processed

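The authors deposited raw counts of reads for each gene and library. The submitters' processing notes name TAIR10, STAR 2.7.2b, Trim Galore 0.5.0 and DESeq2. The counting tool, annotation and strand use are not given in the sources used here. Counts were used as deposited, with 0 columns of other samples. Of 23922 loci, 23755 matched the RefSeq TAIR10.1 annotation, which gave exon lengths, coordinates and overlaps. Blastn matches elsewhere of 95% identity over 75 bases were recorded.

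Genotype was the only term of the edgeR 4.0.16 fit (glmQLFit and glmQLFTest in R 4.3.3, after filterByExpr and TMM scaling), and genes were called at a Benjamini-Hochberg adjusted p below 0.05 over all genes tested. Positive log2 fold changes mean higher in plt1 plt2. The SE is the log2 fold change divided by the square root of F, and the 95% interval uses the t quantile of the test's degrees of freedom. CPM used TMM-scaled library totals, and TPM used merged exon lengths. Intervals rest on 2 libraries per group. Alternatives were DESeq2 1.42.0, its size factors in edgeR, no filter, a mean of 50 or more reads, each library left out, a replicate block and summed near-identical copies. With a library left out, the lone library of its group is assumed to vary like the other group.

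The members and lists were chosen with earlier results of these data known. The text names every member with a row, up to 4 called genes per other list by size of change (or the 2 most abundant where none was called), and PLT1 and PLT2. HY5, PSBTN, PSAD2, PSAE2, PSBQ1, APL and the untested stomatal genes fall outside that rule. Upstream sequences were read from the TAIR10.1 genome by its own annotation, since no promoter table was used here.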

Additional observations from a re-analysis of the deposited data

How the results depend on the processing

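Of 33 genes followed (the 29 tested members, PETE2, CHLP, PHYA and PIF5), 16 kept direction and side of the threshold in every alternative run. Of the 8 called, GLK2 and CHLP kept their calls in all 10 and the other 6 lost theirs in at least 1. The number of genes called across the transcriptome was 2027, and 1068 to 3026 with a library left out (1137 without wild type 1, 1068 without wild type 2, 3026 without plt1 plt2 1). Members called numbered 1 to 5 and genes of the other lists 1 to 6 when a library was left out, and 1 and 2 by DESeq2; the cause was not tested. In the other lists the calls were all lower except 1 higher (PSBTN) with no filter and without plt1 plt2 1, and 2 higher without plt1 plt2 2 (HY1 and CP12-1). The median log2 fold change of the members ranged from -0.25 without plt1 plt2 2 to -0.093 without plt1 plt2 1.

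Leaving out a library turned the direction of 9 genes, none of them called: LHCB1.3 (-0.39 to 1.08), LHCB4.2 (-0.023 to 0.089), LHCB5 (-0.45 to 0.088), LHCA1 (-0.16 to 0.37), PSAK (-0.41 to 0.0798), PSBQ2 (-0.061 to 1.75), GLK1 (-0.40 to 0.62), HEMA1 (-0.11 to 0.056) and GUN4 (-0.061 to 0.71). Libraries of the same number are not stated to be paired, and their deviations had a correlation of -0.11 across 19325 genes. With a replicate block 1909 genes and the same 4 members were called. With the crossed pairing, chosen after seeing the data, 2340 genes and 4 members were called. With at most 42 reads in any library, GLK1, GUN4, PSBQ2, LHCB1.2 and LHCB1.3 had wide intervals, and differences within these were not detectable at this depth.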
